A study of Mus musculus with 2 samples.

Results

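Glucose uptake, glycolysis, lactate handling, the pentose phosphate pathway and glycogen metabolism were examined through 42 named genes in uterine stromal cells of mice on day 4 of pregnancy. The members are the probe sets whose platform annotation gives exactly 1 gene symbol, that symbol being on the list, and 38 of the 42 genes have such a probe set, out of 18193 genes named on the array. Gapdh is among the 38 only through control probe sets, which were kept apart, and the other 37 genes hold 74 probe sets. Gpi1, Pfkfb1, Eno1 and G6pdx were not analysed here. The genotypes compared had 1 array each. Mice labelled as Hand2 floxed supplied the control RNA, and the second array held RNA from Hand2-null mice, made by crossing the floxed allele with PRcre, a Cre line driven from the progesterone receptor locus. Both arrays name a mixed C57BL/6 and SV129 background and list Prcre in it. The Cre acts wherever the progesterone receptor is made, so the deletion is not limited to stroma by the line itself.

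RNA was pooled over mice before hybridization. The series design gives 5 mice per genotype and the extraction protocol gives 4. There was therefore no replicate, no error of a difference and no p-value, and each value below compares 1 pool with another. A gene counted as measured when its signal reached the floor, the 60th percentile of the array, in at least 1 array. The floors were 64.2 for control and 67.5 for Hand2-null, and 10376 genes were measured. Where a gene had several measured probe sets, the brightest by mean log2 signal was chosen for it. A log2 ratio is that of the Hand2-null over the control signal after setting lower values to the floor. As a yardstick of scatter between probe sets, different measured probe sets of the same gene differed with an SD of 0.21 in log2 ratio over 4065 genes. That figure does not hold the variation between mice. Nor does it hold error of RNA preparation or hybridization that all probe sets of a gene share.

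The labels were checked with Hand2 and cell markers. By 1 probe set the signal of Hand2 was 1545 for control and 38.5 for Hand2-null, the latter below its floor. On that probe set the gene was at least 22.9-fold lower. The other Hand2 probe sets read 37.1 and 8.04, and 18.1 and 2.46, under the floor in both arrays. All 11 stromal markers were measured, among them Col1a1, Dcn and Pdgfra, with 6 higher in Hand2-null, 5 lower and a median of 0.07. Their summed signal was 51752 and 57161, control first. The isolates were not stroma alone. All 15 epithelial markers on the array were measured, with 10 of them higher, 5 lower and a median of 0.16. All 19 smooth muscle markers on the array were measured, and all were higher in Hand2-null cells. Their median was 1.27 and their summed signals were 35804 and 77655. Of 21 immediate-early and heat-shock genes, a class induced when tissue is dissociated, 18 were higher and the median was 0.43. Over all measured genes 44.7% were higher and the median was -0.03. The part of epithelial and smooth muscle cells and of handling in the results below was not tested.

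Glycolysis breaks glucose down to pyruvate in the cytosol. Glucose enters through facilitative transporters, is trapped by hexokinase, and is committed to the pathway by phosphofructokinase. Pyruvate is either reduced to lactate and exported or oxidized by the pyruvate dehydrogenase complex, which the pyruvate dehydrogenase kinases switch off, while the pentose phosphate pathway draws on glucose 6-phosphate for NADPH and ribose. In the uterus, stromal cells take up more glucose and make more lactate as they become decidual cells, and the stroma also stores and releases glycogen.

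The glucose genes as a group were close to level between the genotypes. Of the 42 genes 32 were measured, 28 of them above the floor in both arrays. Aldoc, Pgam2, Slc16a3, Pdk2 and Fbp1 were under the floor in both arrays. None of the 32 was at least 2-fold higher and none at least 2-fold lower, against 1.99% and 0.742% of all measured genes. At 1.5-fold, 2 were higher and 1 was lower, which are 6.25% and 3.13% of them, beside 6.21% and 3.32% of all genes. In all, 15 were higher and 17 lower, beside 44.7% and 55.3% of all measured genes. Their median log2 ratio was -0.02, with a range from -0.85 to 0.83, and the median over all genes was -0.03. Of the 32, 18 lay within 0.25 of 0 on the log2 scale, as did 62.4% of all genes. These shares are near the background.

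**Figure D1:**
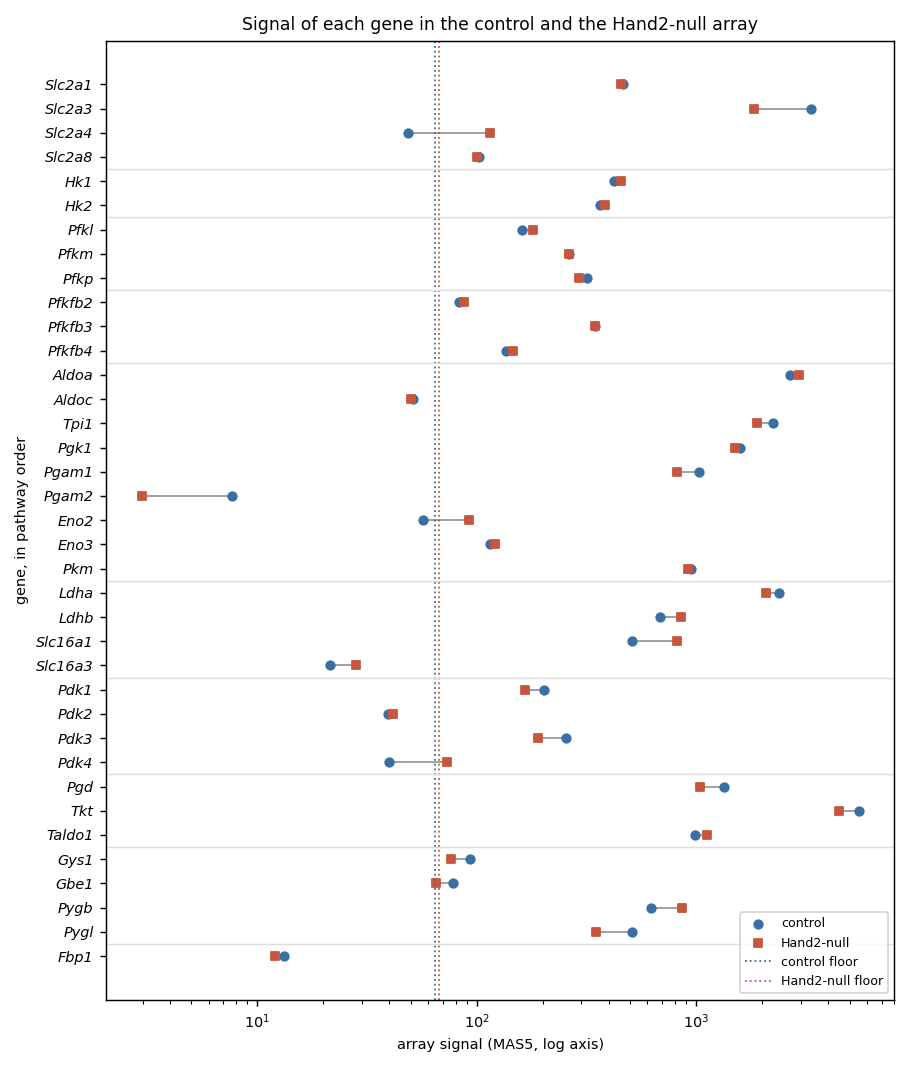
The plot of signals shows each gene with a probe set of its own in pathway order on the vertical axis and the array signal on a logarithmic horizontal axis, with a circle for the control array, a square for the Hand2-null array and dotted lines at the 2 floors. Most pairs nearly touch. Among genes above both floors, Slc2a3 lies far to the right in the control array at 3327 against 1841, and Slc16a1 lies to the right in the Hand2-null array. Slc2a4, at 48.3 and 114, Pdk4, at 39.8 and 73.0, and Pgam2, at 7.62 and 2.98, are also wide apart, each with a signal under its floor.

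The widest differences of the whole set were among the glucose transporters. Slc2a3, the high-affinity transporter GLUT3, read 3327 in control and 1841 in Hand2-null cells, or 1.81-fold lower, a log2 ratio of -0.85. A second probe set read 1608 and 804, a log2 ratio of -1.001. Both probe sets were lower by several times the scatter between probe sets, and 1.20% of measured genes had a lower ratio than Slc2a3. Both are of the kind that can bind more than 1 transcript, while the remaining probe sets of the gene read 8.21 and 2.33 in one case and 2.91 and 3.64 in the other, below both floors. Fewer cells that make a transcript and less of it per cell cannot be told apart in such pools. Slc2a3 is also known from leukocytes, whose markers lay on both sides, where 44.7% of all measured genes were higher and 55.3% lower. Of 6 measured granulocyte and mast cell markers 3 were higher and 3 lower, their median was 0.17, and the summed signals of the list were 788 and 1038. S100a8 and S100a9 of neutrophils, at 192 and 105 and at 138 and 70.0, were lower, as was Kit, while the mast cell proteases Cpa3, at 121 and 381, Cma1, at 82.2 and 213, and Mcpt4, at 37.4 (below the floor) and 121, were higher. Of 5 measured lymphoid markers 2 were higher and 3 lower, and their median was -0.34. Cd3g of T cells, at 91.0 and 169, and Il2rb, at 65.6 and 71.5, were higher. Gzma, at 139 and 100, Gzmb, at 230 and 169, and Nkg7, at 135 and 107, were lower. Cd3e, also of T cells, was under the floor in both arrays. Of 11 measured macrophage markers 4 were higher and 7 lower, their median was -0.05, and they had summed signals of 11177 and 10710. Their part in the Slc2a3 value was not tested.

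Slc2a1, the basal transporter GLUT1, showed no such difference. Its signals were 465 and 454, a log2 ratio of -0.03 whose sign turned with the scaling, and its other probe sets stood at 0.12 and 0.03. Slc2a8, a transporter found mostly inside the cell, read 103 and 99.8, a ratio of -0.04. Slc2a4, the insulin-responsive transporter GLUT4 of muscle and fat, went the other way. Its signal was 48.3 in control cells, below the floor, and 114 in Hand2-null cells, hence at least 1.78-fold higher, a log2 ratio of at least 0.83. Its second probe set was under the floor at 24.5 and 27.4, so the value rests on 1 dim probe set. Beside it, the 19 smooth muscle markers were higher by a median of 1.27. Of 12 markers of striated muscle only Acta1, the skeletal muscle actin, reached the floor, at 302 and 945. Of 5 adipocyte markers only Fabp4 did, at 85.5 and 92.9, and Adipoq, Lep, Cidec and Pparg were under the floor. The part of muscle cells in the Slc2a4 value was not tested.

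Among sugar transporters outside the set, Slc2a12 read 342.5 and 244, a log2 ratio of -0.49, Slc2a10 read 60.2 and 95.6, at least 0.57, and Slc2a13, a carrier of inositol, 175 and 189, or 0.11. The other 6 carriers on the array, among them Slc2a2, Slc2a5 and the sodium-coupled Slc5a1, were under the floor in both arrays.

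The steps that trap glucose and commit it to glycolysis were nearly level. Hk1, the hexokinase of most tissues, read 420.2 and 454, a log2 ratio of 0.11, and Hk2, the inducible hexokinase, 364 and 384, or 0.08. The phosphofructokinase subunits Pfkl, Pfkm and Pfkp of liver, muscle and platelet type read 161 and 180.2, 262 and 263, and 319 and 291. Their ratios were 0.16, 0.01 and -0.13, and a second probe set of Pfkl stood at -0.10. All 3 subunits thus lay within the scatter between probe sets. The PFKFB enzymes make and break fructose 2,6-bisphosphate, the activator of phosphofructokinase. Pfkfb2 read 83.4 and 87.1, Pfkfb3, the form with the strongest kinase activity, 346 and 345, and Pfkfb4 136 and 147, with log2 ratios of 0.06, -0.01 and 0.11. The sign of Pfkfb3 turned with the scaling.

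Between aldolase and pyruvate kinase the ratios differed in sign from step to step. Aldoa, the main aldolase, read 2678 and 2956, a ratio of 0.14, and 4 of its 5 measured probe sets were higher. All 5 are of the kind that can bind more than 1 transcript. Tpi1, triose phosphate isomerase, read 2247 and 1888, a log2 ratio of -0.25, and its 3 probe sets ran from -0.39 to -0.25. Pgam1, phosphoglycerate mutase, read 1030.03 and 818, a ratio of -0.33 on 1 probe set. These lower values for Tpi1 and Pgam1 were 1.19-fold and 1.26-fold in size. Gapdh, glyceraldehyde phosphate dehydrogenase, had control probe sets at -0.07, -0.14 and -0.10, with signals of 3921 and 3745 at its 3' end, and a probe set shared with its pseudogenes at 5273 and 5122. Pgk1, phosphoglycerate kinase, read 1587 and 1508, a ratio of -0.07. Its other probe sets disagreed, at -0.02 and, with signals of 739 and 449.6, at -0.72. Pkm, the pyruvate kinase of most tissues, read 943 and 916, or -0.04.

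The tissue-specific enolases were dim. Eno2, the neuronal form, read 56.9, under the floor, and 91.8, at least 0.51 higher on the log2 scale, and Eno3, the muscle form, read 115 and 121, a ratio of 0.08. The muscle mutase Pgam2, at 7.62 and 2.98, and Aldoc of brain, at 51.4 and 50.1, stayed under the floor in both arrays. Whether muscle cells had a part in the Eno3 value of 0.08 was not tested. Among the 12 striated muscle markers, 11 were under the floor in both arrays. Of 9 other genes of glycolysis on the array 4 were measured, 1 higher and 3 lower, beside 44.7% and 55.3% of all measured genes. Hk3, the hexokinase of blood cells, read 81.1 and 71.1, a ratio of -0.19, Adpgk, the ADP-dependent glucokinase, was at -0.14 or lower, and Tigar was at 0.05.

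**Figure D2:**
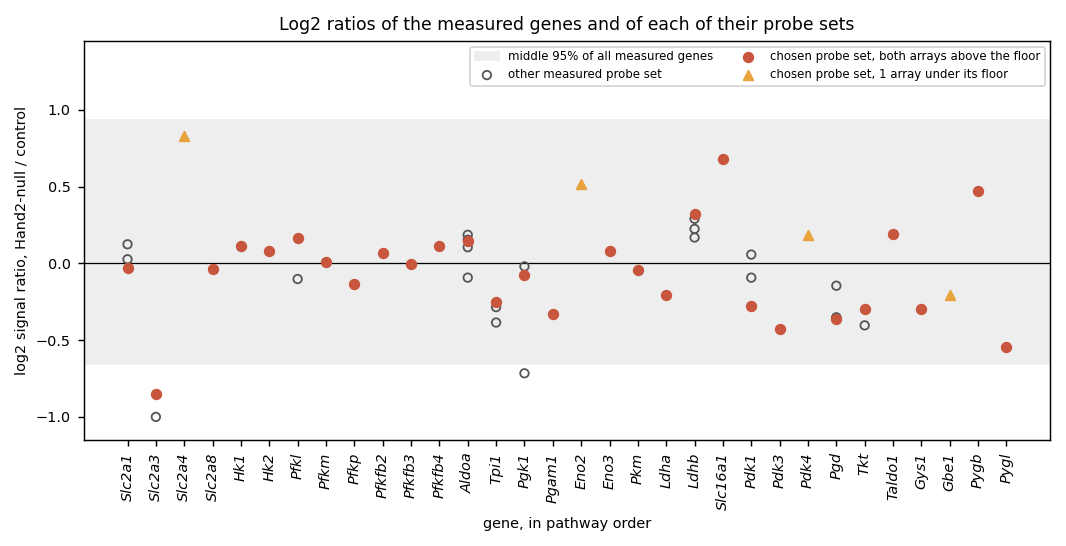
The plot of probe sets gives the log2 signal ratio of Hand2-null over control on the vertical axis for each measured gene in pathway order, with filled marks for the chosen probe set, triangles where 1 array was under its floor, open circles for further measured probe sets and a grey band for the middle 95% of all measured genes, from -0.66 to 0.93. Among chosen probe sets only that of Slc2a3 lies outside the band, and among the others its second probe set and 1 of Pgk1 do.

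More than 1 measured probe set was found for 10 genes, and in 6 of them, Slc2a3, Tpi1, Pgk1, Ldhb, Pgd and Tkt, all pointed the same way. Slc2a1, Pfkl, Aldoa and Pdk1 had probe sets of both signs.

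Lactate dehydrogenase and the lactate carriers held opposite differences. Ldha, the subunit that favours making lactate, read 2389 and 2075, a log2 ratio of -0.20 on 1 probe set. Ldhb, the subunit that favours the return to pyruvate, read 686 and 857, a ratio of 0.32, and its 4 probe sets ran from 0.17 to 0.32. The Ldhb probe sets all pointed up while the single Ldha probe set pointed down, each by little more than the scatter between probe sets or less. Slc16a1, the lactate and pyruvate carrier MCT1, was higher, at 511 and 819.6, or 1.61-fold, a log2 ratio of 0.68. Of all measured genes 4.95% had a higher ratio, and the second probe set of Slc16a1 was under the floor at 5.34 and 1.41. Slc16a3, the carrier MCT4 of lactate-exporting cells, was under the floor at 21.4 and 28.1. Bsg, the chaperone of these carriers, read 1309 and 1317, a ratio of 0.01, and Mpc1, a subunit of the mitochondrial pyruvate carrier, stood at 0.03. Ldhd, which handles D-lactate, read 148 and 101, or -0.55, with a second probe set at -0.38.

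The promoters of these genes are shown because Ldha is a textbook target of hypoxia-inducible factor (HIF). A further reason is that Ldha was lower, while Ldhb and Slc16a1 were both higher. Each sequence is the 250 bases before the annotated start from RefSeq, build GRCm38.p6, read 5′ to 3′ on the strand of the gene, for Slc16a1 at chr3:104638414-104638663 on the plus strand, for Ldha at chr7:46845554-46845803 on the plus strand and for Ldhb at chr6:142507958-142508207 on the minus strand. Capitals mark ACGTG or GCGTG, the core letters of the HIF element, on either strand, and CACGTG holds ACGTG on both strands.
Slc16a1: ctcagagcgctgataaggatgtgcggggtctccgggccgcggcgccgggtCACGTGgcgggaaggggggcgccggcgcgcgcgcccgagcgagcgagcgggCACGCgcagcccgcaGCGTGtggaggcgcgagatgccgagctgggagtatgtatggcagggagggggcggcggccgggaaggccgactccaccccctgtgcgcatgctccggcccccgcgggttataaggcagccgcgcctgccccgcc
Ldha: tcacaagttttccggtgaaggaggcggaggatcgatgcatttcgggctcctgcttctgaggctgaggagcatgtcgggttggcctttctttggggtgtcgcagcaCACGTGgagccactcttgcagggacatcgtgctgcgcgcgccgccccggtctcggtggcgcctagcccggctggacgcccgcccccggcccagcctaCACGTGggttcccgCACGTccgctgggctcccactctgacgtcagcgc
Ldhb: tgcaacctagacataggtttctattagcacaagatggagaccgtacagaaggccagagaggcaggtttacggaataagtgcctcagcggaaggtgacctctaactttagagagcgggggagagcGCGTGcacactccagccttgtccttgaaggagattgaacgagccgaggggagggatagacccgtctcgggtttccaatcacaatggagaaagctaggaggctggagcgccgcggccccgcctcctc
By this count the Ldha window holds 5 matches, the Slc16a1 window 4 and the Ldhb window 1. The core was present in 23 of 30 measured members with a promoter in the RefSeq table, or 76.7%, and in 57.7% of the promoters of 8410 genes measured on the arrays, whose median GC content was 60.4% against 60% in the members. The E-box CATCTG, of the kind that HAND2 binds with an E protein partner, was searched on both strands and was present in 3 of the 30, or 10.0%, and in 9.46% of the measured genes. It is in none of the 3 windows shown. Such matches describe letters and do not show a site in use.

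HIF is known to act on the genes of glycolytic enzymes, and genes that sense oxygen or answer to HIF were read beside them. Of 16 such genes measured, 11 were higher and 5 lower in the Hand2-null array, beside 44.7% and 55.3% of all measured genes. None of these 16 was 2-fold higher or lower, and their median log2 ratio was 0.15 against -0.03 for all genes. Hif1a, the HIF subunit itself, read 1974 and 2506, a ratio of 0.34, P4ha2, a collagen prolyl hydroxylase, 517 and 688, or 0.41, and Egln1, which marks HIF for breakdown, 387 and 491, or 0.34, with a second probe set at -0.24. Glucose genes that are textbook HIF targets, a grouping made after the values were seen, lay on both sides. Slc2a1, Slc2a3, Pgk1, Ldha and Pdk1 were at -0.03, -0.85, -0.07, -0.20 and -0.28. Tpi1, Pgam1, Pkm and Pfkfb3 were at -0.25, -0.33, -0.04 and -0.01, and Hk2, Aldoa and Pfkfb4 at 0.08, 0.14 and 0.11. The split between higher and lower depends on which genes are picked.

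The measured kinases that switch off pyruvate dehydrogenase had ratios of both signs. Pdk3 read 255 and 189.8, 1.34-fold lower, a log2 ratio of -0.43 on 1 probe set, and 7.72% of measured genes had a lower ratio. Pdk1 read 202 and 166, or -0.28, but its other measured probe sets stood at 0.06 and -0.09. Pdk4, the form induced by fasting and glucocorticoids, read 39.8, under the floor, and 73.0, at least 0.18 higher on the log2 scale, and Pdk2 was under the floor at 39.2 and 41.3. Of these kinases Pdk3 alone was lower by more than the scatter between probe sets on all its measured probe sets, of which it has 1. Of the 7 genes of the complex and its phosphatases, 5 were lower and 2 higher, with a median of -0.13. With the kinases 7 of 10 were lower, where 55.3% of all measured genes were lower and the median was -0.03. Pdhx, the binding protein of the complex, read 121 and 72.5, a ratio of -0.74, Dlat 312 and 259.8 by its chosen probe set, or -0.26 with another at 0.08, and the phosphatase Pdp2 85.9 and 111, or 0.37.

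Of the 3 measured pentose phosphate genes 2 were lower. Pgd, phosphogluconate dehydrogenase, which makes NADPH, read 1343 and 1045, a log2 ratio of -0.36, and its 4 probe sets ran from -0.36 to -0.15. Tkt, transketolase, read 5499 and 4465, a ratio of -0.30, with a second probe set at 1216 and 919, or -0.40. All 6 of these probe sets were lower, and the chosen ones were 1.29-fold lower for Pgd and 1.23-fold lower for Tkt. Taldo1, transaldolase, read 986 and 1123, a ratio of 0.19 on 1 probe set. Of 6 further genes of the pathway and of the ribose phosphate step after it, 5 were lower. Prps1 and Prps2, which make the ribose donor of nucleotides, read 293 and 234 and 501 and 422, ratios of -0.33 and -0.25, and Rpia, the ribose phosphate isomerase, read 496 and 440.2, or -0.17. Without Prps1 and Prps2, which act after the pathway, 5 of its 7 measured genes were lower and the median was -0.16, where 55.3% of all measured genes were lower and the median was -0.03. G6pdx, which encodes its first enzyme, is not among the 7. Taldo1 and H6pd, the endoplasmic reticulum enzyme, at 431 and 476, were the 2 higher genes.

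**Figure D3:**
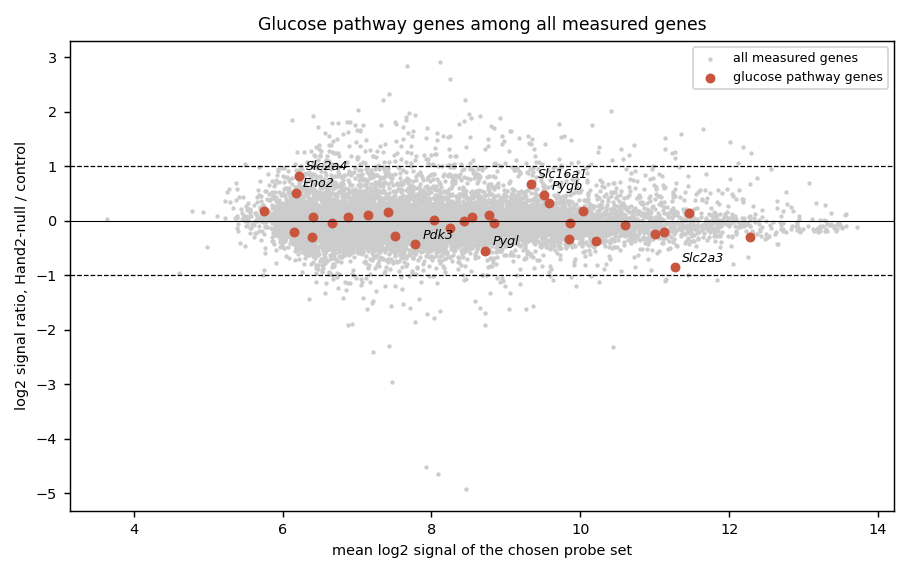
The plot against all genes shows the log2 signal ratio of Hand2-null over control on the vertical axis and the mean log2 signal of the chosen probe set on the horizontal axis, with every measured gene as a grey point, the 32 measured glucose genes in red and dashed lines at 2-fold. The red points follow the grey cloud, and Slc2a3 lies at its lower edge.

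Glycogen phosphorylase, which releases glucose from glycogen, differed by isoform. Pygl, the liver form, read 511 and 349.7, 1.46-fold lower, a log2 ratio of -0.55, and 4.01% of measured genes had a lower ratio. Pygb, the brain form, read 621 and 861, 1.39-fold higher, a ratio of 0.47, and 8.73% had a higher one. Each rests on 1 probe set, and the 2 forms lay on opposite sides by more than the scatter between probe sets. Pygm, the muscle form, read 122 and 137, or 0.16. The synthase Gys1 read 93.4 and 76.0, a ratio of -0.30, and Gbe1, the branching enzyme, read 77.8 and 65.4, the second under its floor, a ratio of -0.21 or lower. Both were close to the floor. Of 12 further measured genes of glycogen 8 were higher and 4 lower, beside 44.7% and 55.3% of all measured genes. Over all 16 genes of glycogen the median was 0.06. Ppp1r3c, a subunit that brings protein phosphatase 1 to glycogen, read 92.0 and 228, a log2 ratio of 1.31 on 1 probe set. It alone of 48 other measured genes of glucose metabolism passed 2-fold, where 1.99% of all measured genes were at least 2-fold higher. Pgm2, a phosphoglucomutase by its annotated name, read 135 and 215, or 0.67, and Ugp2, which makes UDP-glucose, 1379 and 1074, or -0.36, with all 5 of its probe sets lower.

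The promoters of the phosphorylase pair are given for the same reason as those above, since the isoforms differed in direction. They come from RefSeq, build GRCm38.p6, as the 250 bases before the start read 5′ to 3′ on the strand of the gene, with capitals again for ACGTG or GCGTG on either strand. Pygl lies at chr12:70227684-70227933 on the minus strand and Pygb at chr2:150786546-150786795 on the plus strand.
Pygl: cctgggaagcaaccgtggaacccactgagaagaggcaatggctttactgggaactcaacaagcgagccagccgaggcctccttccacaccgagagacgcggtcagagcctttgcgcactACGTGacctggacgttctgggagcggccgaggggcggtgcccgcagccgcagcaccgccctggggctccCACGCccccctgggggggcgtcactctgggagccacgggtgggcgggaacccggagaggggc
Pygb: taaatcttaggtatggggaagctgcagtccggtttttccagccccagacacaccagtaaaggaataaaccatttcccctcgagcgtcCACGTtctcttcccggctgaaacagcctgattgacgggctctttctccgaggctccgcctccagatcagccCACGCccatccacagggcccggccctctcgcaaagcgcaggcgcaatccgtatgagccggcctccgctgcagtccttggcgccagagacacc
Each window holds 2 matches of the core and no CATCTG. The letters searched do not set the isoforms apart.

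Glucose synthesis and side branches were read from the genes outside the set. Fbp1, the fructose bisphosphatase of gluconeogenesis, was under the floor at 13.2 and 12.0, as were G6pc and Pck1, so the enzymes typical of liver were not detected above the floor. The chosen probe sets of the 4 measured genes of this branch were all lower, where 55.3% of all measured genes were lower. The median of the branch was -0.41. Pck2, the mitochondrial form of the enzyme that makes phosphoenolpyruvate, was the nearest to level, at 350.2 and 332, a ratio of -0.08 with a second probe set at 0.20. Pcx, pyruvate carboxylase, which also refills the citric acid cycle, read 581 and 324.5, a ratio of -0.84, Slc37a4, the glucose 6-phosphate carrier, 143 and 97.3, or -0.56, and G6pc3 154 and 129, or -0.26. In the hexosamine, polyol and glycerol phosphate branches 4 of 9 were higher and 5 lower, and the median was -0.12. Akr1b8, an aldose reductase-like enzyme, read 489 and 303, or -0.69, Khk, the fructokinase, 297 and 206, or -0.53, and Gnpnat1 of the hexosamine pathway 252 and 184, or -0.45. Over all 48 measured genes of glucose metabolism outside the set, 20 were higher and 28 lower, 1 and 0 of them 2-fold, with a median of -0.08.

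**Figure D4:**
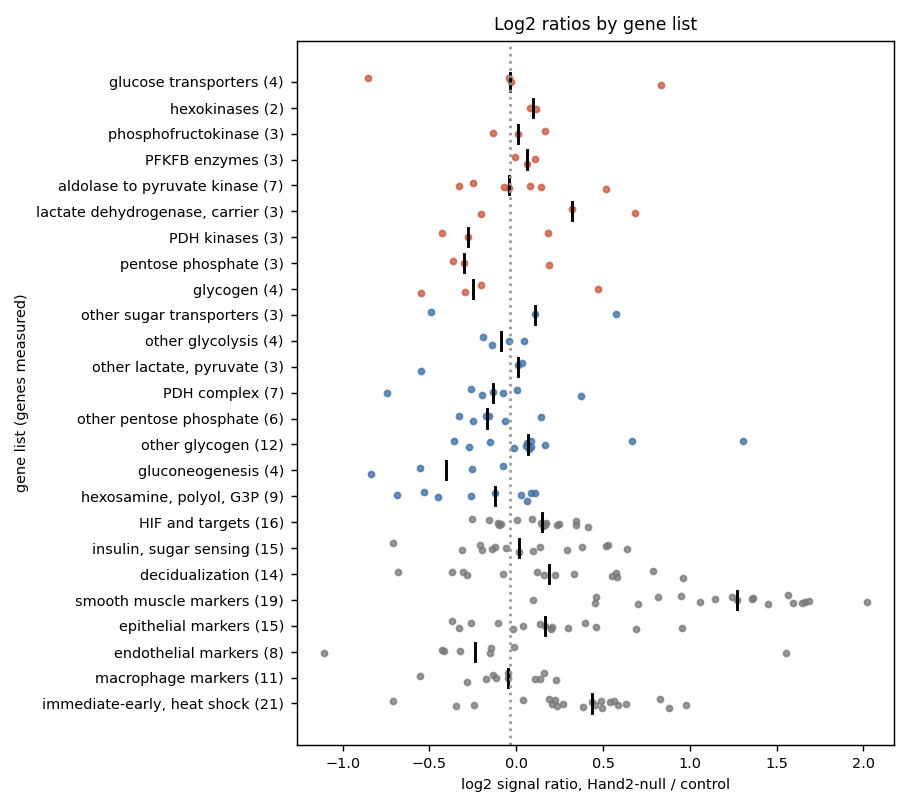
The plot of gene lists gives the log2 signal ratio of Hand2-null over control on the horizontal axis, with a point for each measured gene, a black bar for the median of each list and a dotted line at the median of all genes, in red for the glucose genes, in blue for other genes of glucose metabolism and in grey for regulators, decidualization genes and cell markers. The medians of the red lists lie between -0.30 and 0.32, and the smooth muscle markers stand far to the right at 1.27.

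Signalling that governs glucose use and the decidual programme was read beside the enzymes. Of 15 measured genes of insulin signalling and sugar sensing 8 were higher and 7 lower, and the median was 0.02. The shares of all measured genes were 44.7% and 55.3%. Irs1, an adaptor of the insulin and IGF1 receptors, read 1002 and 1562, a log2 ratio of 0.64, and Foxo1, a transcription factor restrained by insulin, 477 and 687, or 0.53 with its 3 probe sets from 0.40 to 0.53. Myc, which drives glycolytic genes in growing cells, read 776 and 475, or -0.71. Of 14 measured decidualization genes 9 were higher and 5 lower, and the median was 0.19. Bmp2, at 262 and 510, and Dio2, at 1537 and 2651, had ratios of 0.96 and 0.79, and Hoxa11, at 771 and 481, had -0.68. The late decidual prolactin genes Prl8a2 and Prl3c1 were under the floor in both arrays. Beside the decidualization median of 0.19, the glucose genes had a median of -0.02.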

How the data were processed

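The authors deposited 1 linear intensity for each probe set. The submitters' processing notes name MAS5 and version 1 of Affymetrix Expression Console as the tools. Both arrays had a mean of 150.001 after trimming 2% at each end. Detection calls were not used here, and no label or header names a genome build. Of 45101 probe sets 64 controls were left out, 34945 had 1 annotated gene, 932 several and 9160 none listed. Ratios were taken on a log2 scale after the floor was set. No test was made. MAS5 subtracts mismatch probes, which makes dim ratios unsteady, and a shared mean holds only if gains and losses balance over the array. Precision is limited by having 1 array per genotype.

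The 42 members and 308 list entries, members included, were chosen with earlier results of these data known. Both signals are given for each measured member, and up to 3 genes with the widest log2 ratio in each other metabolic, HIF, sugar sensing and decidualization list are named. Marker genes of other lists, H6pd, Pygm, Pck2 and under-floor genes were named after their values were seen. Of measured endothelial, lymphoid, granulocyte and mesothelial markers 1 of 8, 2 of 5, 3 of 6 and 5 of 6 were higher. The share of all measured genes was 44.7%, and no erythrocyte marker was measured. Alternatives were 3 scalings, 3 floors, a pseudo-signal, probe set rules and other thresholds. The steps were tested on simulated data in which only bright genes were altered, by more than 2-fold. That test does not bear on dim genes or on narrow ratios. Figures were drawn with matplotlib 3.10.9, loess was fitted with statsmodels 0.14.6, and tables were handled with pandas 2.3.3 and numpy 2.4.6.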

Additional observations from a re-analysis of the deposited data

How the results depend on the processing

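Counts of glucose genes at least 2-fold higher or lower stayed at 0 under median centring, quantile normalization, loess with a span of 0.3, the floor at the 75th percentile, a pseudo-signal, the mean over probe sets, the omission of probe sets named _x_at or _s_at, the addition of probe sets shared by several genes, and a threshold of 3-fold. With the floor at the 50th percentile 1 gene, Slc2a4, was at least 2-fold higher. With no floor 1 gene was higher, Slc2a4, and 1 lower, Pgam2, whose signals are under the floor in both arrays, while 9.05% and 8.94% of all genes passed. At 1.5-fold 2 were higher and 1 lower. The median log2 ratio ran from -0.04 to 0.02 over the settings. Single genes moved by more than the SD of 0.21 between probe sets in few cases: Pdk4 was at 0.87 with the floor at the 50th percentile or none and at 0.43 with a pseudo-signal, Slc2a4 at 1.24 with the lower floor or none, and Hk1 at -0.15 with a probe set shared with Rpl17, a ribosomal protein gene. Slc2a3 and Aldoa had no value without _x_at and _s_at probe sets, which left 30 measured genes. Differences of dim genes are limited by their distance from the floor. No paired analysis was possible because each genotype has 1 array.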
